A study of Mus musculus with 6 samples.

Results

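The Nr4a genes encode a subgroup of orphan nuclear receptors, and the deposited table held all 3 of them among its 53797 genes, found by gene symbol: Nr4a1 (Nur77), Nr4a2 (Nurr1) and Nr4a3 (Nor1). Nuclear receptors are transcription factors that bind DNA through a pair of zinc fingers, and most of them are switched by a ligand. The Nr4a receptors are controlled mainly by how much of them a cell makes. They are immediate early genes, transcribed within minutes of a stimulus from signalling proteins that are already present, and in bone cells they are known to be induced by parathyroid hormone and prostaglandins through cAMP. NR4A proteins bind an AAAGGTCA sequence as monomers, and Nr4a1 and Nr4a2, but not Nr4a3, also pair with the retinoid X receptor.

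The data came from MLO-Y4, an immortalised murine line with osteocyte features that is grown as a culture. The LIPUS group was 3 samples that received low-intensity pulsed ultrasound for 20 min at 1.5 MHz and 30 mW/cm2. The Control group was 3 untreated samples of the same line. According to the methods, treated and untreated wells shared a culture plate in which the transducers under the untreated wells were disconnected, and RNA was taken 30 min after the stimulation ended. The authors deposited a single FPKM per gene and group, a fragment number scaled to transcript length and library size and pooled over the 3 libraries of a group. No value of a single library was in the table, so no SD between samples and no test is given here, the depth of each library cannot be read from it, and every difference below is between 2 pooled values. The study's text describes the samples as independent repeats in one place and exempts the sequencing from independent repetition in another, so whether the samples are separate cultures is uncertain. It also describes a Control library that stood apart from the other Control libraries, and since the pooled Control values include it, no result here could be given without it. The study proposes that ultrasound leaking into the Control wells may have caused this variation, which was not tested here. A difference in RNA per cell and a difference in the share of responding cells cannot be told apart in such bulk values.

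Of 15 osteocyte and late osteoblast markers, 10 had a mean FPKM of at least 1, among them Pdpn (295 FPKM in Control, 402 with LIPUS), which marks early osteocytes, and Gja1 (176 and 169.7 FPKM), the gap junction protein connexin 43. By a ratio of at least 1.5, 1 of the 10 was higher with LIPUS, Dmp1, a matrix protein of osteocytes (3.04 and 7.65 FPKM), and 3 were lower, the osteoblast factors Runx2 (24.4 and 14.8 FPKM) and Sp7 (5.86 and 3.75 FPKM, not tested by the authors) and the phosphatase Alpl (293 and 189.7 FPKM). Over all 11536 genes with such a mean, 7.46% were higher by this ratio and 8.08% lower. The mature osteocyte markers Sost, Mepe and Fgf23 were listed at 0 in both groups. Of 11 markers of leukocytes, macrophages, endothelium and adipocytes, 7 were listed at 0 in both groups, Ptprc, Cd3e, Adgre1 and Cdh5 among them. The summed level of the 11 was 6.69 FPKM in Control and 2.15 FPKM with LIPUS, most of it from the macrophage-associated gene Cd68 (5.32 and 1.72 FPKM, also not tested by them). Its part in the differences below was not tested.

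The promoters of the Nr4a genes are shown first, because the genes are known to respond to cAMP through short elements close to their start sites. The sequences are from RefSeq (GRCm38.p6), which gave 1 start site for each gene, and run 5′ to 3′ on the strand of the gene. Capitals mark each TGACG, the short form of the cAMP response element, read on either strand (CGTCA on the strand printed). Nr4a1 is on the plus strand and the stretch is chr15:101266596-101266845, the 250 bases before its start. Nr4a2 is on the minus strand and the stretch is chr2:57124004-57124253, also 250 bases. Nr4a3 is on the plus strand and the stretch is chr4:48045055-48045152, the first 98 of its 250 bases, since the other 152 are exonic in GENCODE M21.
Nr4a1: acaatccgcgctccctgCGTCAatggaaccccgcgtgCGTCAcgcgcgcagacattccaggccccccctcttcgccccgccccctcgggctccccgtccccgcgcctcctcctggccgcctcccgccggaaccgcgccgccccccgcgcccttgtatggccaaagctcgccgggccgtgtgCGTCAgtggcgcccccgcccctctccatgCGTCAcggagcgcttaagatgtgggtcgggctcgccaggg
Nr4a2: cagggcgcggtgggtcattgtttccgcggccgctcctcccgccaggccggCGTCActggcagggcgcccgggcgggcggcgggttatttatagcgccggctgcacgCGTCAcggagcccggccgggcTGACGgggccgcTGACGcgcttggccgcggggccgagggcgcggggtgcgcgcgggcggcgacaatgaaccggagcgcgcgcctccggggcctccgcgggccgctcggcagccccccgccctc
Nr4a3: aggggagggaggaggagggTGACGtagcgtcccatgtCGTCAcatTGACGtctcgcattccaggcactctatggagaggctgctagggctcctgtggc

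Each of the 3 promoters held 4 matches to TGACG in the 250 bases before the start. In Nr4a1 the matches began 233, 213, 69 and 40 bases before the start, all of them on the minus strand. In Nr4a2 they began 200, 144, 123 and 111 bases before the start, and in Nr4a3 231, 213, 205 and 147 bases before it, the last one inside the exonic stretch that is not printed. Among all 32851 RefSeq promoters of this length, 17.8% held at least 1 match and 0.137%, or 45 promoters, held at least 4. The Nr4a promoters are rich in G and C (74.4%, 80.0% and 63.6% for Nr4a1, Nr4a2 and Nr4a3, against a median of 52.4%). Among the 9178 promoters with at least 60% G and C, 0.370% held at least 4 matches. These are matches of letters and not measured binding sites.

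The longest run of bases that the Nr4a1 and Nr4a2 promoters shared was the 12 bases GCGTCACGGAGC, which contain a match and begin 41 bases before the Nr4a1 start and 145 bases before the Nr4a2 start. It occurred in 5 of all promoters. The full palindrome TGACGTCA, of which TGACG is a part, was in none of the 3 promoters and in 1.55% of all promoters. The promoters of Nr4a1, Nr4a2 and Nr4a3 also held no AAAGGTCA (1.34% of all promoters), no AP-1 site TGANTCA (6.75%), no CCAAT (33.8%) and no CArG box, the site of serum response factor (1.47%). A TATAAA was found only in the Nr4a2 promoter (12.4% of all promoters), where it overlapped the only MEF2 site (2.92%). GGGCGG, a site of Sp1, occurred 3 times in Nr4a1, 4 times in Nr4a2 and 1 time in Nr4a3, and in 32.7% of all promoters. All motifs were read on both strands.

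**Figure D1:**
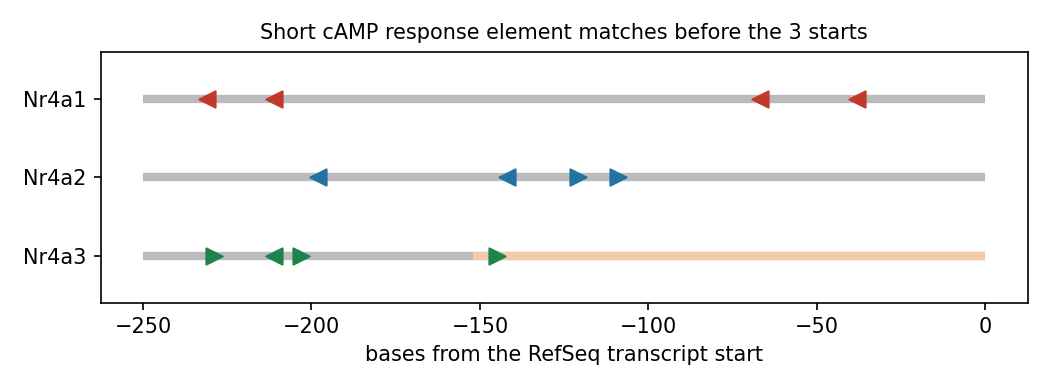
Positions of the TGACG matches in the 250 bases before the RefSeq transcript start of each Nr4a gene; the x axis is the distance from the start in bases, and triangles point right for the plus strand of the gene and left for its minus strand. The orange part of Nr4a3 is exonic in GENCODE M21, and each gene shows 4 matches.

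Among the 30 of 40 immediate early genes that had an entry in the promoter table, 18 held at least 1 TGACG, 4 held the full TGACGTCA, 4 a CArG box and none an AAAGGTCA. Over all 27025 genes in that table, 19.8% held at least 1 TGACG, 1.77% the full TGACGTCA, 1.62% a CArG box and 1.55% an AAAGGTCA. Among promoters with at least 60% G and C, 27.1% held at least 1 TGACG. The G and C content of the immediate early promoters was not compared. Other genes with as many matches are given for comparison. Of the 35 other genes with at least 4 matches and a mean FPKM of at least 1, 5 were higher by a ratio of at least 1.5 and 2 were lower, and their median log2 ratio was 0.05, beside the 7.46% higher and 8.08% lower over all genes.

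All 3 Nr4a genes had a higher FPKM after LIPUS. Nr4a1 was at 44.8 FPKM in Control and 87.5 FPKM with LIPUS, a ratio of 1.95. Nr4a2 was at 13.3 and 25.6 FPKM, a ratio of 1.92. Nr4a3 was at 2.21 and 4.85 FPKM, a ratio of 2.19. The gain in level followed the starting level, with 42.7 FPKM for Nr4a1, 12.3 FPKM for Nr4a2 and 2.64 FPKM for Nr4a3, while the ratios of the 3 genes lay close together.

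**Figure D2:**
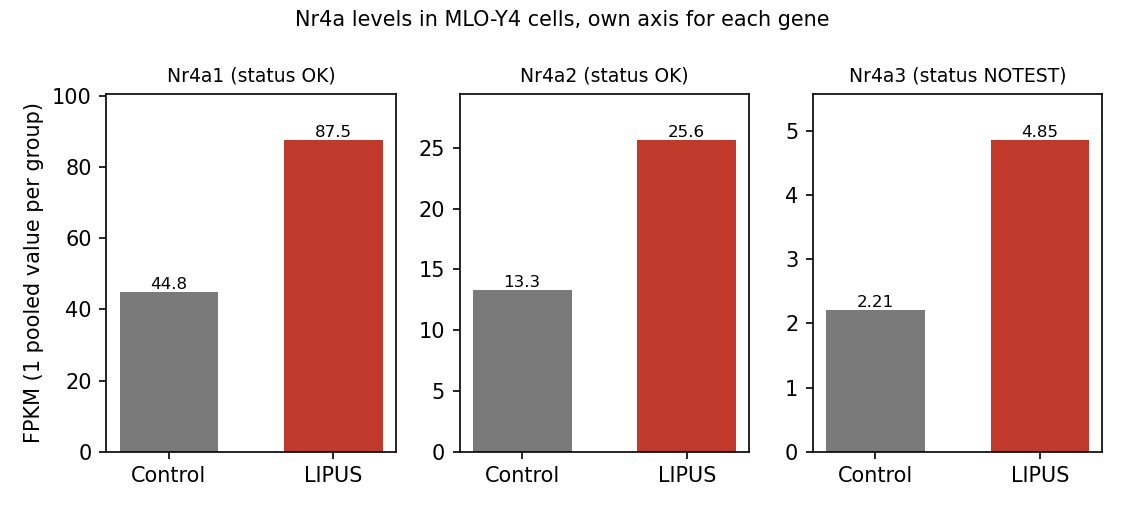
FPKM of Nr4a1, Nr4a2 and Nr4a3 in Control (grey) and LIPUS (red) MLO-Y4 cells, each gene on its own axis from 0; a bar is the authors' single pooled value for 3 libraries, so no error bar can be drawn. The LIPUS bar is about as much higher in each panel, at a ratio of 1.92 to 2.19.

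The status that Cuffdiff, the program behind the table, gave to each gene was OK for Nr4a1 and Nr4a2 and NOTEST for Nr4a3, which means that no comparison was run for Nr4a3. Every gene with status OK had a larger FPKM than Nr4a3 in at least 1 group, the lowest of them at 6.70 FPKM. In the class of 1 to 10 FPKM, to which Nr4a3 belonged, 70.3% of the genes had status NOTEST. The ratio of Nr4a3 is therefore that of a pair of low values, without the authors' own comparison behind it.

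On the log2 scale, with 0.1 FPKM added to each value, the ratio of LIPUS over Control was 0.96 for Nr4a1, 0.94 for Nr4a2 and 1.10 for Nr4a3. How far this stood out depended on the level, since low genes scatter more. Nr4a1 and Nr4a2 belonged to the 5784 genes with a mean of 10 to 100 FPKM, of which 3.53% were higher with LIPUS by a ratio of at least 1.5 and 3.68% lower. In this class, 48 genes had a larger log2 ratio than Nr4a1 and 55 a larger one than Nr4a2. Nr4a3 belonged to the 4800 genes of 1 to 10 FPKM, of which 13.1% were higher by that ratio and 14.6% lower (3.05% and 1.68% at 100 FPKM and above), and 209 of them, or 4.35%, had a larger log2 ratio than Nr4a3. The ratio of Nr4a3 was thus the highest of the 3 and the least unusual for its level. This order depended on the amount added, since with 1 FPKM added the log2 ratio of Nr4a3 was the lowest of the 3 (0.86).

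**Figure D3:**
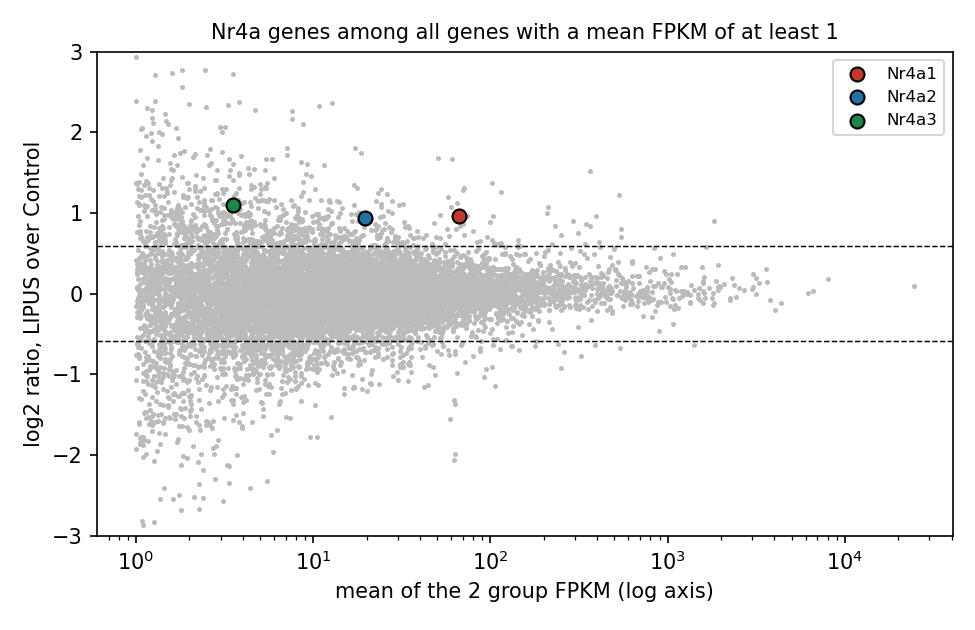
Log2 ratio of LIPUS over Control against the mean of both group FPKM (log axis) for the genes with a mean of at least 1 FPKM; grey points are genes, the coloured points are the Nr4a genes and the dashed lines mark a ratio of 1.5. The spread is widest at low levels, and Nr4a1 and Nr4a2 lie at the upper edge of their level while Nr4a3 lies within a broad cloud; 90 genes with a log2 ratio beyond 3 in either direction are outside the axis.

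The order of the Nr4a genes was the same in both groups. FPKM is scaled to length, so levels can be set side by side: Nr4a1 was 3.36 times as abundant as Nr4a2 in Control and 3.41 times with LIPUS, and 20.3 and 18.0 times as abundant as Nr4a3. Nr4a1 made up 74.3% of the summed Nr4a level in Control and 74.2% with LIPUS, Nr4a2 22.1% and 21.7%, and Nr4a3 3.67% and 4.11%. The sum of the 3 was 60.3 FPKM in Control and 118 FPKM with LIPUS, a ratio of 1.96, with nearly the same makeup in both groups. Whether the small gain in the share of Nr4a3 exceeds the spread between cultures cannot be read from pooled values.

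The Nr4a genes differ enough in sequence that their reads can be told apart. GENCODE M21 lists 4 transcripts for Nr4a1 on chromosome 15 (101254269 to 101274795, plus strand), 6 for Nr4a2 on chromosome 2 (57106830 to 57124003, minus strand) and 4 for Nr4a3 on chromosome 4 (48045153 to 48086447, plus strand). No stretch of 100 bases, the length of a read, was shared between any of these transcripts and a transcript of another gene. At 50 bases, 9 of 5986 stretches of Nr4a3 were shared and none of Nr4a1 or Nr4a2. The coding sequences were 60.04% identical between Nr4a1 and Nr4a2, 57.2% between Nr4a1 and Nr4a3 and 62.8% between Nr4a2 and Nr4a3.

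The part that codes for the zinc fingers is the most alike, and it is shown because it is what makes these genes a family. It was located by the spacing of its cysteine codons and is 168 bases long in each gene, at coding bases 808 to 975 of Nr4a1, 787 to 954 of Nr4a2 and 877 to 1044 of Nr4a3. Capitals mark the bases of Nr4a2 and Nr4a3 that differ from Nr4a1. The sequences are from the GENCODE M21 transcripts.
Nr4a1: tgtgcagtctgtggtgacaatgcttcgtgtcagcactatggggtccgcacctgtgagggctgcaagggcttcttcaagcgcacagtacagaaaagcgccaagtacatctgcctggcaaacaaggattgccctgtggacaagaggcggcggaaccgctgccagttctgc
Nr4a2: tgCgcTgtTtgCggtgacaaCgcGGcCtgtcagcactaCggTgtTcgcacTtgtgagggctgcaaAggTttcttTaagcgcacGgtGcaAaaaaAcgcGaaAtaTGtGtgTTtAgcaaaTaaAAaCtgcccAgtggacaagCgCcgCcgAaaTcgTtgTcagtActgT
Nr4a3: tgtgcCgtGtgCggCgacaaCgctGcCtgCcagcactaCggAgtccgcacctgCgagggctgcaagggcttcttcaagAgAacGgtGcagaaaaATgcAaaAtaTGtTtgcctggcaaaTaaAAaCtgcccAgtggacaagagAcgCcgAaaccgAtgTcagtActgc

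Of the 41 bases at which Nr4a2 differed from Nr4a1 in this part, 34 were at the last base of a codon, and of the 33 of Nr4a3, 27 were. Identity in this part was 75.6% between Nr4a1 and Nr4a2, 80.4% between Nr4a1 and Nr4a3 and 83.9% between Nr4a2 and Nr4a3. Before it, identity was between 49.2% and 55.3%, and after it between 61.5% and 66.5%.

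Among all 49 nuclear receptors of the mouse, the Nr4a genes were all higher with LIPUS. Nr4a1 had the second highest level in both groups, below Rarg, a retinoic acid receptor at 145 FPKM in Control and 117 FPKM with LIPUS. Below Nr4a1 came Nr2f6, an orphan receptor, at 41.9 and 41.7 FPKM. Nr4a2 was in place 17 in Control and 8 with LIPUS, and Nr4a3 in place 23 and 21. The Nr4a genes together made up 10.7% of the summed level of all 49 receptors in Control and 19.5% with LIPUS. The sum of the other 46 was 502 FPKM in Control and 487 FPKM with LIPUS.

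Of these 46 other receptors, 20 were listed at 0 in both groups and 23 had a mean of at least 1 FPKM. By a ratio of at least 1.5, 2 of the 23 were higher, 3 were lower and 18 lay within it, with a median log2 ratio of 0.01. The higher ones were Nr1d1, the clock repressor REV-ERB alpha (20.4 FPKM in Control, 34.7 FPKM with LIPUS), and Nr2f1, an orphan receptor (2.15 and 4.07 FPKM). The lower ones were Vdr, the vitamin D receptor (35.3 and 21.1 FPKM), Rarb, a retinoic acid receptor (3.29 and 2.08 FPKM), and Nr6a1, the germ cell nuclear factor (1.74 and 0.530 FPKM). Nr2f1, Rarb and Nr6a1 had status NOTEST, so 2 of the 5 had status OK. Each Nr4a gene lay past the ratio in the same direction, as did 7.46% of all genes.

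**Figure D4:**
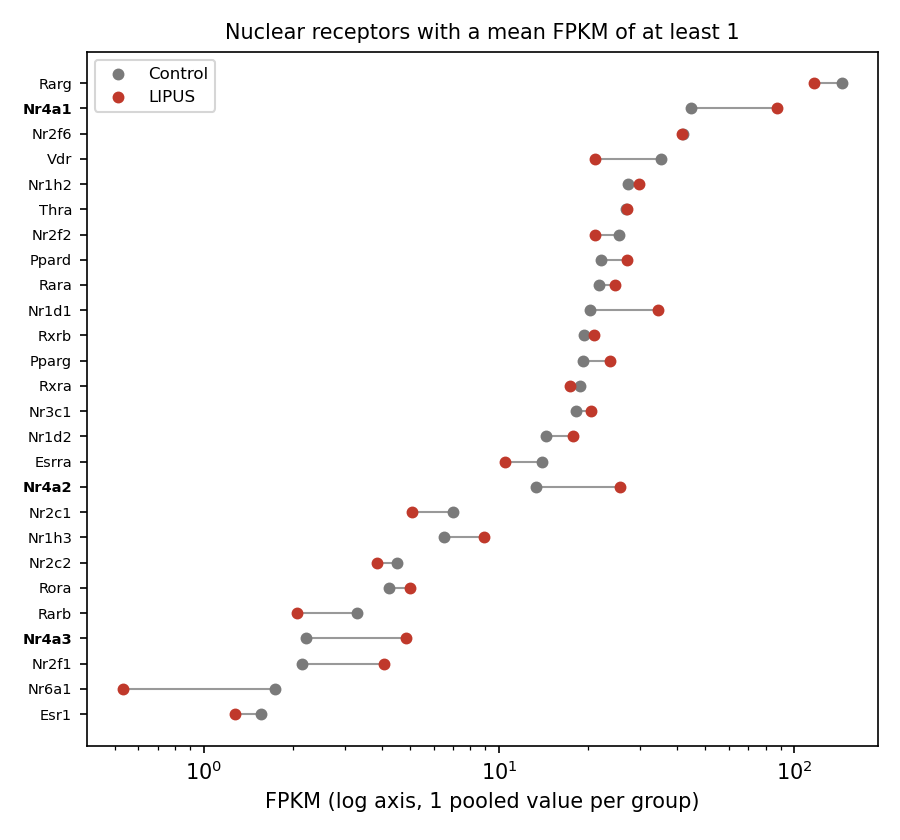
FPKM (log axis) of the nuclear receptors with a mean of at least 1 FPKM, in order of their Control level; grey points are Control, red points LIPUS, each a single pooled value, and the Nr4a genes are in bold. Most lines are short, while those of Nr4a1, Nr4a2 and Nr4a3 run to the right, as do those of Nr2f1 and Nr1d1. The longest line, that of Nr6a1, runs to the left.

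The Nr4a genes lay high among the immediate early genes. Of 40 such genes, 39 had a mean of at least 1 FPKM, and with LIPUS 20 were higher by a ratio of at least 1.5, 1 was lower and 18 lay within it, with a median log2 ratio of 0.61 against 0.00 (-0.00179) over all genes, of which 7.46% were higher by that ratio and 8.08% lower (3.53% and 3.68% at 10 to 100 FPKM). Among these 39, 7 had a larger log2 ratio than Nr4a1, 8 a larger one than Nr4a2 and 7 a larger one than Nr4a3. The 5 with the largest ratios were Egr4 (2.70 FPKM in Control, 7.99 FPKM with LIPUS), Egr2 (56.6 and 147 FPKM), Egr3 (67.9 and 163 FPKM), Fosb (34.8 and 80.1 FPKM) and Csrnp1 (17.2 and 38.2 FPKM). Egr4, Egr2 and Egr3 code for zinc finger factors of early growth response, Fosb for a subunit of AP-1 and Csrnp1 for a nuclear protein. The most abundant of the list was Ctgf, a matricellular protein, at 1271 and 2375 FPKM.

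The early genes did not all lie in the same direction. Zfp36l1, which codes for an mRNA decay factor, was the 1 lower gene (38.5 FPKM in Control, 24.3 FPKM with LIPUS). Fos, the best known of the list, was at 15.2 and 22.5 FPKM, a log2 ratio of 0.56, just within the bound. Dusp1, a MAP kinase phosphatase, was at 18.0 and 12.9 FPKM, and Atf3, a stress factor of the CREB family, at 5.58 and 3.75 FPKM (status NOTEST). Fos, Dusp1 and Atf3 were picked after their values were seen.

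The factors known to act at Nr4a promoters were mostly at similar levels in both groups. Of 16 CREB, MEF2 and serum response factors and coactivators, 14 had a mean of at least 1 FPKM, of which 1 was higher by a ratio of at least 1.5 and 1 lower, with a median log2 ratio of -0.04, near the shares of 7.46% and 8.08% over all genes. The higher one was Crem (3.72 FPKM in Control, 6.84 FPKM with LIPUS, status NOTEST), a cAMP-responsive gene that also codes for the repressor ICER. The lower one was Crtc1, a coactivator of CREB (9.74 and 5.06 FPKM). The ETS factors Elk4 (10.9 and 14.1 FPKM) and Elk3 (62.6 and 75.2 FPKM), partners of serum response factor, lay within the ratio. Ep300, a histone acetyltransferase, was at 15.7 and 10.9 FPKM, and Mef2d, the most abundant of the list, at 101 and 96.5 FPKM. Creb1 itself was at 7.16 and 8.30 FPKM.

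In the calcium route, which acts on MEF2 through calcineurin and histone deacetylases, 1 of 10 genes with a mean of at least 1 FPKM was higher by the ratio and none lower, near the shares of 7.46% and 8.08% over all genes. It was Rcan1, an inhibitor of calcineurin whose own transcription is known to follow calcineurin activity, at 321 FPKM in Control and 749 FPKM with LIPUS, a log2 ratio of 1.22. Camk2g, a calmodulin-dependent kinase, was at 39.1 and 55.6 FPKM, and Cabin1, which represses MEF2, at 16.7 and 11.6 FPKM. Hdac7, a histone deacetylase that binds MEF2, was at 12.97 and 15.7 FPKM, and the calcineurin catalytic subunit Ppp3ca was at 109 and 124 FPKM. In the cAMP route 1 of 11 genes was higher by the ratio and 2 lower, with a median log2 ratio of -0.05, beside 7.46% and 8.08% over all genes, and so few genes do not set the route apart. Ptger4, a prostaglandin E2 receptor that raises cAMP, was at 8.77 and 13.5 FPKM. The phosphodiesterases Pde10a (24.8 and 14.03 FPKM) and Pde4b (19.5 and 12.2 FPKM), which break down cAMP, were the lower genes. Prkacb, a catalytic subunit of protein kinase A, was at 32.0 and 24.1 FPKM, and Pth1r, the parathyroid hormone receptor, at 1.41 and 1.07 FPKM (status NOTEST). Gnas, the stimulatory G protein, was at 243 and 234 FPKM.

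Of 13 genes for proteins that bind or phosphorylate NR4A, 1 was lower by a ratio of at least 1.5 and none was higher, counts near the shares of 8.08% and 7.46% over all genes. The retinoid X receptors were nearly level, with Rxra at 18.8 FPKM in Control and 17.4 FPKM with LIPUS and Rxrb at 19.4 and 21.0 FPKM, while Rxrg was below the minimum mean (0.165 and 0.299 FPKM, status NOTEST). Nr4a1 was 2.39 times as abundant as Rxra in Control and 5.03 times with LIPUS. The lower gene was Rps6ka1, a ribosomal S6 kinase (2.79 and 1.59 FPKM, status NOTEST). Akt1, which phosphorylates Nr4a1, was at 148 and 119 FPKM, Rps6ka3, a kinase related to Rps6ka1, at 15.5 and 11.0 FPKM, and Trim28, a coregulator and the most abundant of the list, at 161 FPKM in both groups. Ncor1, a nuclear receptor corepressor, was at 62.8 and 73.9 FPKM, and Mapk3, the kinase ERK1, at 64.4 and 57.3 FPKM.

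Genes described as NR4A targets in other cells were few above the minimum level. Of 28, 10 were listed at 0 in both groups and 11 had a mean of at least 1 FPKM, and of the 11 none was higher by a ratio of at least 1.5 and 1 was lower, with a median log2 ratio of -0.15, beside 7.46% higher and 8.08% lower over all genes, so that with 11 genes the count does not set them apart. The lower one was Lpin1, a phosphatidate phosphatase (2.15 FPKM in Control, 1.05 FPKM with LIPUS, status NOTEST). Genes below the minimum went both ways, all with status NOTEST. Bglap, which codes for osteocalcin, was listed at 0 in Control and 1.58 FPKM with LIPUS, and Slc2a4, the glucose transporter GLUT4, at 0 and 0.890 FPKM. Tnfsf10 was listed at 0.326 FPKM in Control and 0.0451 FPKM with LIPUS, and Ucp3 at 0.0825 and 0 FPKM. Spp1, which codes for osteopontin, was at 4514 and 4158 FPKM. Ret, a receptor tyrosine kinase, was at 30.2 and 21.6 FPKM, Gys1, the muscle glycogen synthase, at 18.4 and 13.4 FPKM, Birc3, an inhibitor of apoptosis, at 8.53 and 6.38 FPKM, and Bcl2l11, the apoptosis inducer Bim, at 3.93 and 4.98 FPKM (status NOTEST). Of 10 genes that the study picked as Nr4a1 targets by binding scores, 8 had a mean of at least 1 FPKM, of which 2 were higher by the ratio and none lower, beside 7.46% and 8.08% over all genes. The 10 were chosen by the study from public binding data and not by their level in these samples. The higher ones were Tmem179 (1.12 and 4.11 FPKM, status NOTEST) and Adssl1, an enzyme of AMP synthesis (24.6 and 38.5 FPKM). Passing the ratio is no test, and whether either gene differed beyond the spread between samples cannot be read from these values. Cst3, the protease inhibitor cystatin C and the most abundant of the list, was at 454 and 594 FPKM, Mcl1, an inhibitor of apoptosis, at 126 and 157 FPKM, and Greb1 at 1.53 and 1.22 FPKM (status NOTEST).

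**Figure D5:**
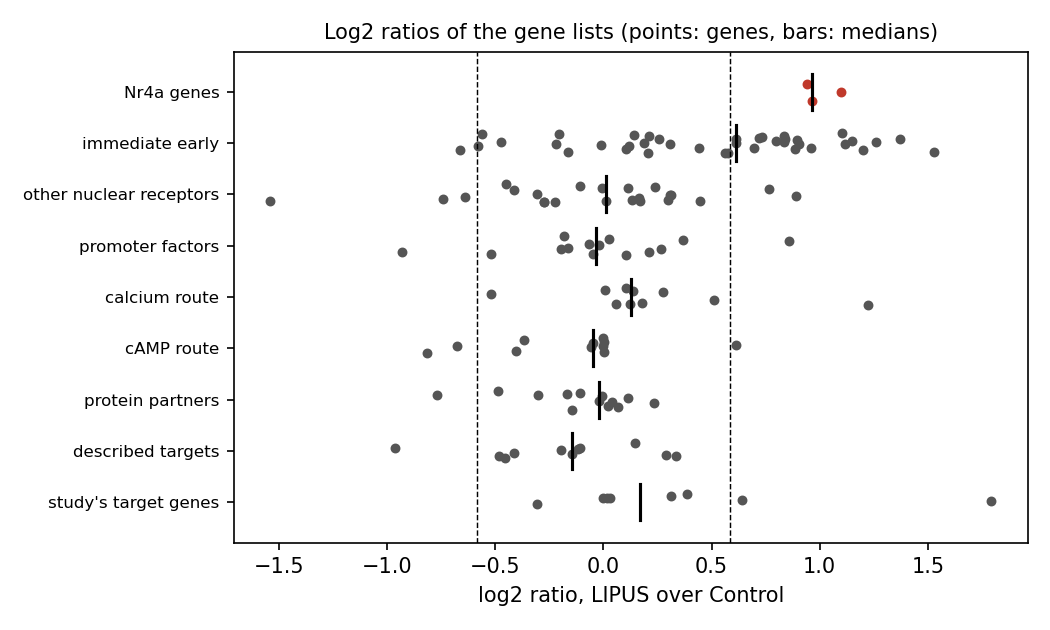
Log2 ratio of LIPUS over Control for the genes of each list with a mean of at least 1 FPKM; a point is a gene, a vertical bar the median of the list, and the dashed lines mark a ratio of 1.5 in either direction. The Nr4a genes (red) lie between 0.94 and 1.10, in the upper part of the immediate early genes, while the medians of the other 7 lists drawn lie between -0.15 and 0.17.

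The genes around the Nr4a loci were followed to show the levels beside them. Within 500 kb on either side of the gene's span in the table, 13 genes had a mean of at least 1 FPKM, of which none was higher by a ratio of at least 1.5 and 2 were lower, beside 7.46% and 8.08% over all genes, and with 13 genes these counts do not set them apart. The start of Atg101, an autophagy gene, is 30.0 kb downstream of the first GENCODE start of Nr4a1, which lies upstream of the RefSeq start whose promoter is printed, and Atg101 was at 11.2 FPKM in Control and 10.4 FPKM with LIPUS. Grasp, a scaffold protein whose start lies upstream of both Nr4a1 starts, was at 10.1 and 8.09 FPKM. Further upstream of Nr4a1, Acvr1b, an activin receptor (1.89 and 1.02 FPKM), and Fignl2 (1.87 and 0.747 FPKM) were the lower genes, both with status NOTEST, and Acvrl1, a receptor of the same kind, was at 2.47 and 2.08 FPKM (status NOTEST). On the other side Krt80, a keratin, was at 6.85 and 7.58 FPKM.

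Near Nr4a2 the only such gene was Gpd2, a mitochondrial glycerol phosphate dehydrogenase, at 19.7 FPKM in Control and 18.2 FPKM with LIPUS. Near Nr4a3 there were 6, all within the ratio. Stx17, a syntaxin of autophagosomes, was at 7.80 and 6.95 FPKM, Erp44, a chaperone of the secretory route, at 24.2 and 24.3 FPKM, and Invs, a protein of the primary cilium, at 2.30 and 2.22 FPKM (status NOTEST). Tex10 was at 29.6 and 22.1 FPKM, Msantd3 at 24.7 and 20.8 FPKM, and Tmeff1 at 24.3 and 18.3 FPKM. Of the 13 neighbours, Krt80 and Erp44 had a higher FPKM with LIPUS and the others a lower one, beside a median log2 ratio of -0.00179 over all genes. Most of these differences were small and within the ratio, and whether they exceed the spread between samples was not tested.

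The genes with the most similar pair of values were found by the distance between the log2 levels in Control and LIPUS, over these 2 pooled values only. Nearest to Nr4a1 were Klf10, an immediate early zinc finger factor (48.2 and 86.1 FPKM, distance 0.11), Cp, which codes for ceruloplasmin (46.6 and 81.3 FPKM, 0.12), and Gadd45b, a stress response gene (40.8 and 88.6 FPKM, 0.14). Nearest to Nr4a2 were 1 of the 2 entries of Zc3h11a (ENSMUSG00000116275, 13.3 and 24.5 FPKM, 0.07), Sike1 (13.8 and 24.6 FPKM, 0.08) and Tm2d3 (14.4 and 24.0 FPKM, 0.15). The other entry of Zc3h11a (ENSMUSG00000102976) was at 35.7 and 20.1 FPKM, the opposite direction, and entries of the same symbol may share reads, so its level is uncertain. Nearest to Nr4a3 were Bmp4, a bone morphogenetic protein (2.28 and 4.96 FPKM, 0.05), 2810006K23Rik (2.32 and 4.88 FPKM, 0.07) and Bdh2 (2.12 and 5.01 FPKM, 0.08), all with status NOTEST.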

How the data were processed

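RNA of MLO-Y4 cells was sequenced by the authors from 3 LIPUS and 3 Control samples as stranded mRNA libraries. Per the labels, the authors processed reads with Trimmomatic 0.36, TopHat2 2.1.0 and Bowtie2 2.2.6.0 on GRCm38, and Cuffdiff of Cufflinks 2.1.1, while the methods name another Cufflinks release. The deposited values are FPKM, 1 per gene and group, pooled over libraries. The same table holds the authors' fold change, test statistic, p-value, q-value and call for each gene, which were not used here. Genes listed at 0 in 1 group may be failed estimates, and no fold is printed for any of them. With 0.1 FPKM added they still enter the counts of genes past the ratio.

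Groups were compared by the ratio of both FPKM, on the log2 scale after adding 0.1 FPKM, over the 11536 genes with a mean of at least 1 FPKM. A ratio of at least 1.5 in either direction was counted, as the pooled values allow no test of their own. The members and gene lists were chosen with earlier results of these data known. Within a list, the genes named are the 5 with the largest absolute log2 ratio and the most abundant one, together with the retinoid X receptors, the 3 nearest genes in level, and neighbours within 500 kb. Other names, such as Creb1, Bglap, Slc2a4, Tnfsf10, Ucp3, Nr2f6 and some cell markers, were added after the values were seen. Promoters came from RefSeq GRCm38.p6, gene models and transcripts from GENCODE M21, both of the build of the table. Protein sequences were not used here. The steps were tested on simulated data. Python 3.11.15, numpy 2.4.6, pandas 2.3.3, Biopython 1.88 and matplotlib 3.10.9 were used. Alternatives were other pseudocounts, ratios, minimum levels, windows and centring.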

Additional observations from a re-analysis of the deposited data

How the results depend on the processing

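No paired analysis was possible because the table holds 1 pooled value per group. For the same reason leaving out each replicate could not be run, and the planned comparison of proteins was not run. The Nr4a1, Nr4a2 and Nr4a3 log2 ratios stayed positive under every pseudocount and under centring. They were 0.95, 0.90 and 0.86 with a pseudocount of 1, so that Nr4a3 was then the lowest of the 3 and no longer the highest. A pseudocount of 0.01 gave 0.97 for Nr4a1 and 1.13 for Nr4a3, and centring on the median 0.97 for Nr4a1. With a ratio of at least 2, only Nr4a3 of the 3 passed, and with a mean of at least 10 FPKM or status OK only Nr4a1 and Nr4a2 were kept. The counts of genes past the ratio moved more. With a level at least 25% above that of the other group, 1929 genes were higher and 2046 lower, with 8 other receptors, 4 promoter factors, 3 calcium route, 5 cAMP route, 2 partner and 5 described target genes. With a ratio of 2, 305 were higher and 342 lower, with 7 immediate early genes, 1 other receptor, 1 of the study's targets, 1 osteocyte marker and 0 promoter factors, cAMP route genes, partners and described targets. With any FPKM above 0, 2559 were higher and 2729 lower, with 6 cAMP route, 3 partner and 5 described target genes, the last of them 2 higher and 3 lower. With a mean of at least 10 FPKM, 233 were higher and 229 lower, with 2 other receptors, 2 osteocyte markers, 1 of the study's targets and 0 promoter factors, partners and described targets. With status OK, 378 were higher and 380 lower, with 2 other receptors, 1 promoter factor, 1 of the study's targets and 0 partners and described targets. With a pseudocount of 1, 0 partners passed. Within 1000 kb, 5 of 35 neighbours passed the ratio, all of them lower. Over all genes 15.5% passed it in either direction and 8.08% were lower, so these few genes do not set the neighbours apart. The number of TGACG matches did not change when 50 bases after the start were added. These settings change which genes are counted by construction, and depth, which the pooled table does not hold, limits what low values such as those of Nr4a3 can show.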
